A study of Mus musculus with 6 samples.

Results

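The BCL2 family comprises the proteins that decide whether the outer mitochondrial membrane is opened during apoptosis, and it was examined here through 10 genes in fetal mouse ovaries that lacked the splicing factor SRSF1 in germ cells. The members were taken from the deposited table by gene symbol. They were the effectors *Bax* and *Bak1*, the anti-apoptotic genes *Bcl2*, *Bcl2l1* and *Mcl1*, and the BH3-only genes *Bbc3*, *Pmaip1*, *Bcl2l11*, *Bid* and *Bad*, which made up 10 of the 54532 genes of the deposited table. RNA came from whole ovaries of C57BL/6 mice at 16.5 days post-coitus (dpc), with 3 Ctrl and 3 cKO libraries. The cKO mice carried the *Stra8-GFPCre* transgene and floxed *Srsf1* alleles (*Stra8-GFPCre Srsf1* Fl/Fl), and the sample labels give the Ctrl mice as wild type. The *Stra8* promoter drives Cre in germ cells that enter meiosis, so somatic cells of the cKO ovary keep *Srsf1*. The sources used here do not say how many ovaries or animals went into a library, so p-values measure the spread between these libraries.

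Effectors permeabilize the outer mitochondrial membrane and release cytochrome c, which starts the caspase cascade. Anti-apoptotic members hold effectors and BH3-only proteins in check by binding them, and BH3-only proteins relay stress, such as DNA damage or loss of survival factors, either by blocking the anti-apoptotic members or by activating the effectors. In the ovary this pathway is known for the loss of oocytes around birth and after DNA damage, where the kinase CHK2 and the p53 family act upstream of *Bbc3* and *Pmaip1*.

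The segment that ties the family together is the BH3 domain, the helix by which its members bind each other. The search took a core of 6 codons, a leucine, 3 codons of any kind, then glycine, alanine or serine, then aspartate, in the longest complete coding sequence of each gene in GENCODE M21 (GRCm38). All 10 of 10 members held it, but so did 33.8% of the 21745 genes searched, so the core by itself does not mark the family. Coding windows of 45 bases around the core are shown for a pair of members of each of the 3 classes. Capitals mark the leucine codon and the last pair of codons of the core, and each window is read on the strand of its gene.
Bax, effector, exon 3, chr7:45465991-45466035, minus strand: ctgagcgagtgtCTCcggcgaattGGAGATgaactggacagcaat
Bak1, effector, exon 4, chr17:27022525-27022569, minus strand: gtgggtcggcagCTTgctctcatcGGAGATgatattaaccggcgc
Bcl2l1, anti-apoptotic, exon 2, chr2:152829691-152829735, minus strand: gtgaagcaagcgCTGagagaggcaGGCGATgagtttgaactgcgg
Mcl1, anti-apoptotic, exon 1, chr3:95659424-95659468, plus strand: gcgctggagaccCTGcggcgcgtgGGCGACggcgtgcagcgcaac
Bcl2l11, BH3-only, exon 3, chr2:128147138-128147182, plus strand: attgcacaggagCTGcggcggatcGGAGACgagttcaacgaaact
Bbc3, BH3-only, exon 3, chr7:16313761-16313805, plus strand: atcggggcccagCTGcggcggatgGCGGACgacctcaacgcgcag
The last pair of capital codons reads glycine and aspartate in the first 5 windows and alanine and aspartate in *Bbc3*.

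Expression is given as FPKM, the fragments on a gene divided by its length and by the library size, so levels can be set side by side between genes. The libraries held between 14212164 and 16784241 reads on genes. *Srsf1*, the gene removed in germ cells, was 71.2 ± 8.61 FPKM (SD, n = 3) in Ctrl and 35.3 ± 2.49 (n = 3) in cKO, with no overlap between groups, which is the direction the labels give. Ovarian identity was visible in every library, with all 10 pregranulosa markers and all 10 germ cell markers detected. The summed level of the germ cell list differed widely between libraries of the same group, from 105 to 375 FPKM in Ctrl and from 194 to 531 in cKO. Summed red blood cell markers ran from 4901 to 23322 FPKM in Ctrl and from 1722 to 10478 in cKO. Summed neutrophil markers separated the groups, at 71.9 to 280 FPKM in Ctrl and 49.1 to 54.1 in cKO, although 2 of the 7, *Mpo* and *Elane*, overlapped between groups and were highest in cKO 3. The RNA is that of a whole organ, so fewer cells of a type and less RNA per cell cannot be told apart in any of the comparisons.

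All 10 members were expressed, and all passed the minimum mean of 0.5 FPKM over the 6 libraries. *Mcl1* stood at the top with a mean of 50.8 FPKM, and each of its libraries was above every library of *Bax*, the next member at 20.3 FPKM. *Bcl2l1* at 16.8 FPKM, *Bad* at 16.7 and *Bak1* at 12.2 followed, and the ranges of neighbours from *Bax* to *Bak1* overlapped. *Bcl2l11* at 5.53 FPKM, *Bid* at 5.09, *Bbc3* at 4.35 and *Bcl2* at 3.77 came next. The wide range of *Bbc3*, from 1.98 to 8.92 FPKM, reached that of *Bak1* above and that of *Pmaip1* below, while the libraries of *Bcl2l11* all lay above those of *Bcl2*. *Pmaip1* was last at 1.05 FPKM, and its highest library lay below the lowest library of *Bcl2*. Only the gap below *Mcl1* was crossed by no library of any member.

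**Figure D1:**
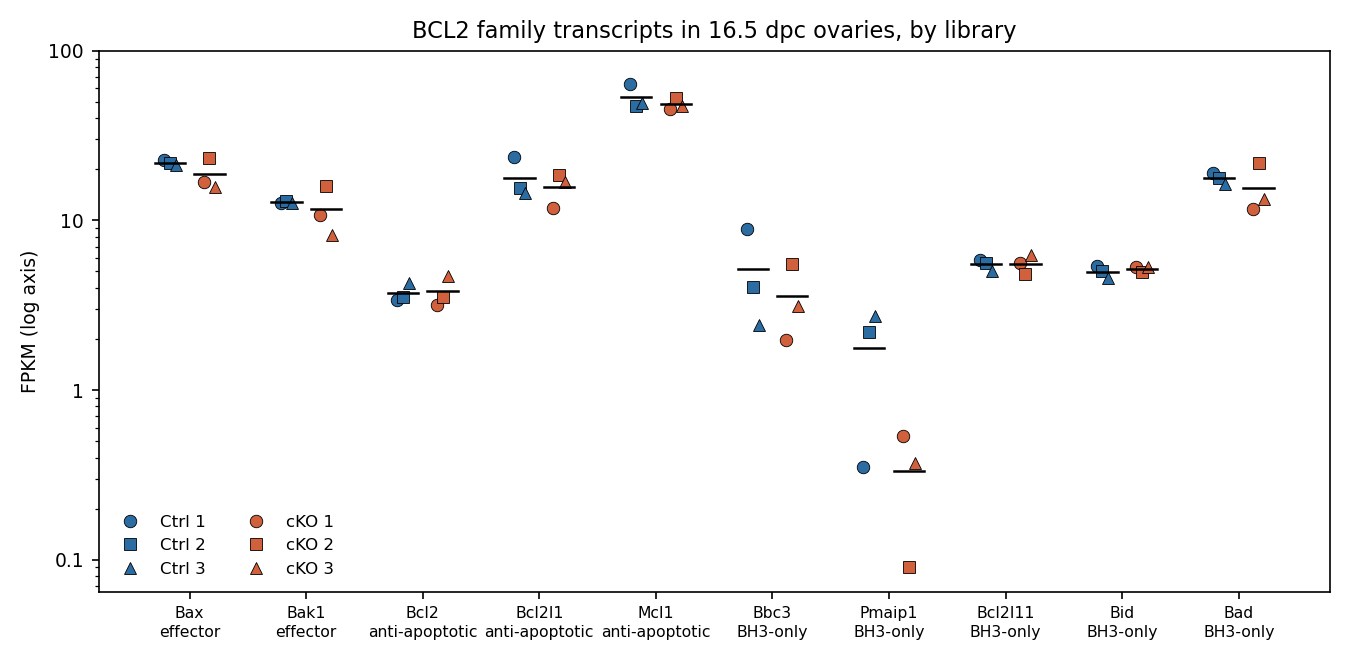
FPKM of the 10 BCL2 family members in the 3 Ctrl and 3 cKO libraries on a log axis, 1 point per library, with members in order of their role. *Mcl1* lies highest at 45.4 to 63.7 FPKM, and *Pmaip1* spreads widest, from 0.0901 to 2.75 FPKM.

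To ask whether loss of SRSF1 in germ cells changed the expression of the family, cKO was compared with Ctrl by limma on log2(FPKM + 1), two-sided, over the 17180 genes that passed the minimum. *Pmaip1* was the only member past the unadjusted limit of 0.05, and it was lower in cKO. This is 1 of 10 members, where 4.43% of all genes passed in either direction, 2.68% higher and 1.75% lower. No member passed an adjusted p below 0.05, and neither did any other gene, the smallest adjusted p being 0.392. No member had groups that did not overlap, as against 8.68% of all genes. The median log2 difference of the 10 members was -0.17, with 7 of 10 below 0, and that of all genes tested was -0.01.

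**Figure D2:**
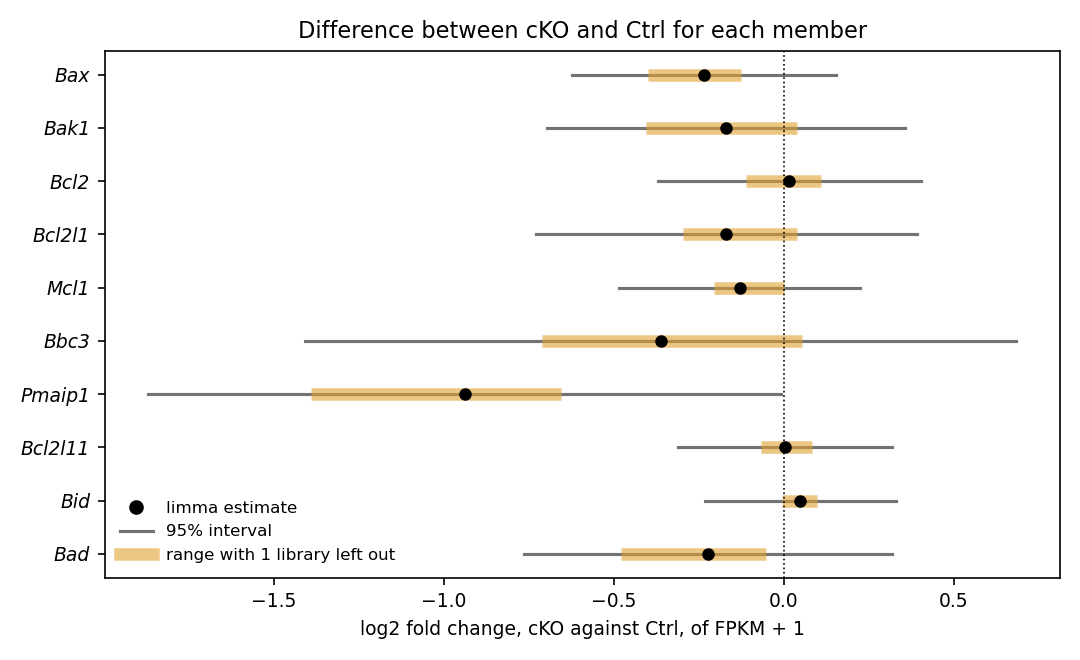
Log2 difference of cKO from Ctrl for each member, on the log2(FPKM + 1) scale, with the 95% interval of limma as a line and the range over the 6 fits that leave out 1 library each. The interval of *Pmaip1*, from -1.87 to -0.01, is the only one that stays below 0, and those of the other 9 members cross 0.

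The effector *Bax* lies on chromosome 7 from 45461697 to 45466898 on the minus strand and encodes a protein that moves from the cytosol to mitochondria to form pores. In the order of the replicate numbers, which holds for all values per library given here, the Ctrl libraries measured 22.6, 21.7 and 21.2 FPKM. Those of cKO measured 17.0, 23.4 and 15.7 FPKM. The cKO group held both the highest and the lowest libraries, with cKO 2 above all Ctrl libraries and cKO 1 and cKO 3 below them. The log2 difference was -0.23 with an interval from -0.62 to 0.15 (limma, adjusted p = 0.978). With 3 libraries against 3 an exact permutation test cannot go below p = 0.1, and for *Bax* it gave p = 0.4, two-sided, beside an unadjusted limma p = 0.194. *Bax* shares 915 bases with *Gm45808* on the same strand, a gene listed at 0 FPKM.

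*Bak1*, the effector that resides in the outer mitochondrial membrane, lies on chromosome 17 from 27019810 to 27029009 on the minus strand. It measured 12.7, 13.0 and 12.7 FPKM in Ctrl and 10.8, 16.0 and 8.16 in cKO. The Ctrl libraries were nearly alike, and those of cKO lay on both sides of them in the same order as for *Bax*. *Bak1* had a log2 difference of -0.17 with an interval from -0.70 to 0.36 (limma, p = 0.469; exact permutation p = 0.7). The gene lies wholly within *Ggnbp1*, which is annotated on the opposite strand and averaged 2.25 FPKM, and reads shared with it cannot be told apart where counting ignored strand.

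*Bad* showed the same arrangement as the effectors. It is a BH3-only gene on chromosome 19 from 6941861 to 6951898, and its protein is held inactive by phosphorylation when survival factors are present. Its level was 19.1, 17.9 and 16.3 FPKM in Ctrl and 11.7, 21.9 and 13.3 in cKO, again with cKO 2 highest and the other cKO libraries lowest. *Bad* had a log2 difference of -0.22 with an interval from -0.76 to 0.32 (limma, p = 0.36; exact permutation p = 0.4).

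Library cKO 2 thus stood apart from the other cKO libraries for *Bax*, *Bak1* and *Bad*. Without it the log2 difference was -0.40 for *Bax* (limma, adjusted p = 0.226), -0.40 for *Bak1* (adjusted p = 0.304) and -0.48 for *Bad* (adjusted p = 0.23). In that fit these 3 members were past the unadjusted limit, all lower in cKO, but 14.5% of all genes passed as well and 6.01% were lower. This library also had the lowest summed germ cell markers of its group, 194 FPKM as against 484 and 531, although *Dnd1* was highest there within cKO. Its summed pregranulosa markers were the highest of all libraries, 845 FPKM as against 615 to 745, although *Fst*, *Lgr5*, *Krt19* and *Kitl* were higher in another library. The part of cell composition in these differences was not tested. With the mean germ cell level as a covariate, a fit added after the values were seen, the difference was -0.14 for *Bax*, -0.06 for *Bak1* and -0.07 for *Bad*.

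Among the anti-apoptotic members, *Mcl1* encodes a short-lived protein that restrains *Bak1* in particular and lies on chromosome 3 from 95658788 to 95663176. It measured 63.7, 47.4 and 48.9 FPKM in Ctrl and 45.4, 52.4 and 47.2 in cKO. Ctrl 1 stood above the other libraries, which covered a common range from 45.4 to 52.4 FPKM. For *Mcl1* the log2 difference came to -0.13 with an interval from -0.48 to 0.22 (limma, p = 0.413; exact permutation p = 0.5), and without Ctrl 1 it was 0.00.

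*Bcl2l1*, whose long isoform BCL-XL protects cells and whose short isoform BCL-XS promotes death, lies on chromosome 2 from 152780668 to 152831728. Its level was 23.6, 15.6 and 14.5 FPKM in Ctrl and 11.8, 18.6 and 16.8 in cKO. The highest library was Ctrl 1 and the lowest cKO 1, and between them cKO 2 and cKO 3 lay above Ctrl 2 and Ctrl 3, so the groups overlapped. The log2 difference was -0.17 with an interval from -0.73 to 0.39 (limma, p = 0.498; exact permutation p = 0.6). The library order of *Bcl2l1* was that of the summed red blood cell markers, which were 23322, 7936 and 4901 FPKM in Ctrl and 1722, 10478 and 9962 in cKO. Not every single marker had this order, and *Hba-x* and *Hbb-y* were highest in cKO 1. BCL-XL is known as a survival factor of maturing red cells. The part of blood content in the spread of *Bcl2l1* was not tested. FPKM values sum the 9 annotated transcripts of *Bcl2l1*, and its splice forms were not analysed here.

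*Bcl2*, the founding anti-apoptotic gene, lies on chromosome 1 from 106538178 to 106714274. It was 3.38, 3.55 and 4.28 FPKM in Ctrl and 3.19, 3.56 and 4.68 in cKO, so that both groups covered nearly the same range. The log2 difference was 0.02 with an interval from -0.37 to 0.40 (limma, p = 0.924; exact permutation p = 0.9).

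*Pmaip1*, which encodes the BH3-only protein NOXA and is a known transcriptional target of p53, had the largest difference of the 10 members. It lies on chromosome 18 from 66458604 to 66465550. Its level was 0.353, 2.19 and 2.75 FPKM in Ctrl 1, 2 and 3, from 14, 94 and 127 reads. In cKO it was 0.538, 0.0901 and 0.373 FPKM, from 22, 4 and 14 reads. Ctrl 2 and Ctrl 3 stood apart at the top, whereas Ctrl 1 was as low as the cKO libraries and below cKO 1, so the groups overlapped. The mean was 1.77 ± 1.25 FPKM (SD, n = 3) in Ctrl and 0.334 ± 0.226 (n = 3) in cKO, a ratio of 0.189.

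The log2 difference of *Pmaip1* was -0.94 with an SE of 0.39 (limma, p = 0.0487, adjusted p = 0.978; exact permutation p = 0.3). On the log2(FPKM + 1) scale the difference of such a low gene is understated. The unadjusted call rested on single libraries. It was kept without Ctrl 1, where the log2 difference of *Pmaip1* was -1.39 (limma, adjusted p = 0.578). It was lost when any other library was left out, at a log2 difference of -0.77 and -0.66 after removal of Ctrl 2 and Ctrl 3, and of -1.05, -0.80 and -0.97 after removal of cKO 1, cKO 2 and cKO 3. It was also lost with voom on the recovered reads, where the log2 difference was -2.30, with a pseudocount of 0.1, where it was -1.90, and in 4 further settings named under the alternatives.

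*Pmaip1* was next set beside the germ cell content of the libraries. The summed level of the 10 germ cell markers was 105, 206 and 375 FPKM in Ctrl and 484, 194 and 531 in cKO, and Ctrl 1, with the lowest germ cell level of the 6, was the Ctrl library with low *Pmaip1*. Within Ctrl, *Pmaip1* was therefore higher in the libraries with a higher sum of these markers, and in cKO it was low at every level of the sum. *Dnd1* was the only listed marker that was highest in Ctrl 1, at 4.15, 2.18 and 2.56 FPKM in Ctrl. Set against the germ cell list, *Pmaip1* was 0.337, 1.06 and 0.733 FPKM per 100 FPKM of the list in Ctrl and 0.111, 0.0464 and 0.0702 in cKO. On this scale the groups did not overlap. It was the single member of which this held, where 5.02% of all genes did not overlap and 4.68% were lower in cKO without overlap. *Dazl* is part of this divisor, at 23.0, 39.1 and 80.0 FPKM in Ctrl and 169, 56.8 and 219 in cKO. Its higher mean in cKO adds to the divisor there and lowers the values per 100 FPKM of the list. Per 100 FPKM of *Ddx4*, a helicase gene of germ cells, *Pmaip1* was 2.70, 6.97 and 5.61 FPKM in Ctrl and 1.04, 0.445 and 0.677 in cKO. On that scale 3.00% of all genes did not overlap in either direction, and 2.25% were lower in cKO without overlap.

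When the mean germ cell level entered the fit as a covariate, the log2 difference of *Pmaip1* was -1.26 with an SE of 0.24 (limma, adjusted p = 0.568). In that fit 1 of 10 members passed the unadjusted limit, where 5.88% of all genes did and 3.17% were lower. Its log2 difference there lay between -1.52 and -1.10 with any 1 library left out, and no limma adjusted p of these fits was below 0.305. The scaling to germ cell markers and the covariate were chosen after the values had been seen. The narrow range over these fits is therefore no independent test of the difference. *Dazl*, 1 of the 10 germ cell markers, was itself higher in cKO, and whether *Pmaip1* RNA came from germ cells was not tested.

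**Figure D3:**
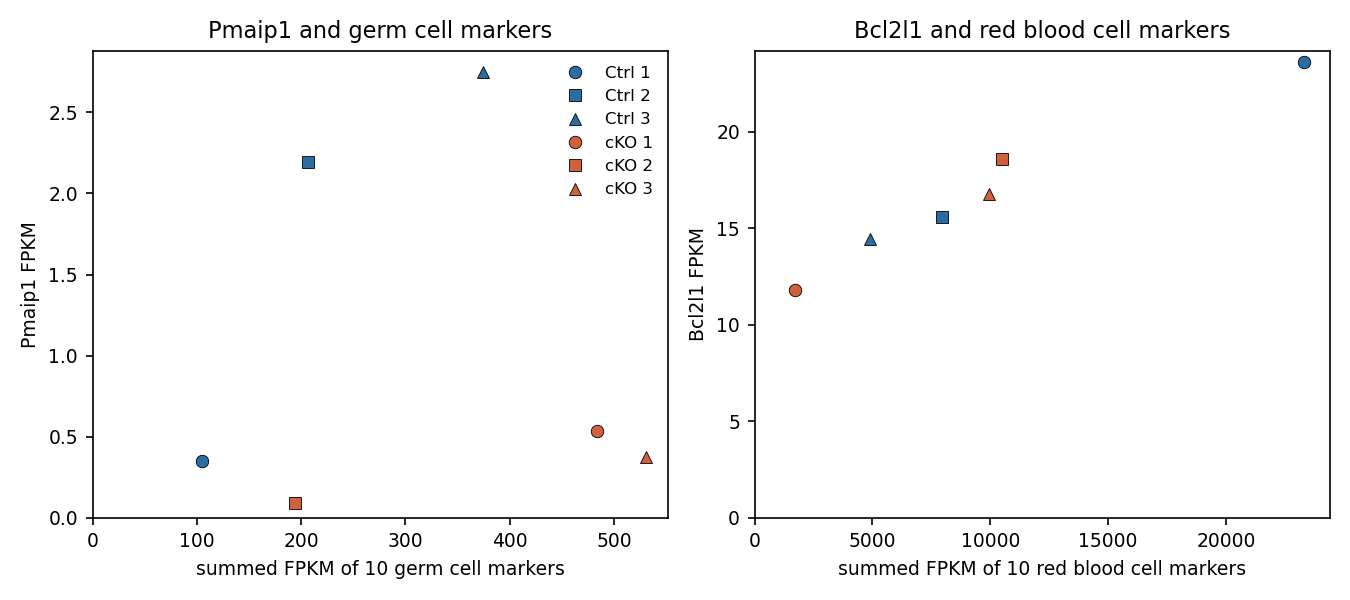
Left, FPKM of *Pmaip1* against the summed FPKM of the 10 germ cell markers, and right, FPKM of *Bcl2l1* against the summed FPKM of the 10 red blood cell markers, 1 point per library. *Pmaip1* reaches 2.19 and 2.75 FPKM in Ctrl 2 and Ctrl 3 and stays at 0.538 FPKM or less in cKO. *Bcl2l1* and the summed red blood cell markers rank the 6 libraries alike.

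*Bbc3* encodes PUMA, a BH3-only protein that binds all anti-apoptotic members and, like NOXA, is induced by p53. The gene lies on chromosome 7 from 16308393 to 16318205. Its level was 8.92, 4.07 and 2.43 FPKM in Ctrl and 1.98, 5.56 and 3.15 in cKO. Libraries of both groups alternated along a 4.5-fold range, the widest after that of *Pmaip1* at 30.5-fold. The log2 difference was -0.36 with an interval from -1.41 to 0.68 (limma, p = 0.438; exact permutation p = 0.6), and without Ctrl 1 it was 0.05. *Bbc3* and *Pmaip1*, both known p53 targets, thus had different library orders, with *Bbc3* highest in Ctrl 1, where *Pmaip1* was lowest among Ctrl.

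The steadiest members were the BH3-only genes *Bcl2l11* and *Bid*. *Bcl2l11*, on chromosome 2 from 128126038 to 128162547, encodes BIM, which relays loss of survival signals, and measured 5.84, 5.65 and 5.06 FPKM in Ctrl and 5.60, 4.84 and 6.21 in cKO. Its log2 difference was 0.00 with an interval from -0.31 to 0.32 (limma, p = 0.977; exact permutation p = 1). *Bid*, on chromosome 6 from 120891930 to 120916853, encodes the protein that caspase-8 cuts to link death receptors to mitochondria. It measured 5.41, 5.01 and 4.56 FPKM in Ctrl and 5.28, 4.95 and 5.34 in cKO. Its highest library was only 1.19-fold above its lowest, and its log2 difference was 0.05 with an interval from -0.23 to 0.33 (limma, p = 0.695; exact permutation p = 0.7). *Bid* overlaps *Bcl2l13* on the opposite strand, at a mean of 9.35 FPKM, and *Bad* overlaps *Gpr137*, at 13.3 FPKM, so a part of their reads is uncertain where strand was not used.

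Summed by class, the effectors reached 34.6 ± 0.732 FPKM in Ctrl and 30.3 ± 8.07 in cKO (SD, n = 3 each). The anti-apoptotic members together reached 74.9 ± 13.6 FPKM in Ctrl and 67.8 ± 7.12 in cKO, and the BH3-only members 35.2 ± 4.27 and 30.3 ± 6.34. Each of these differences was smaller than the larger SD of its pair. *Mcl1* alone made up between 34.6% and 40.1% of the summed FPKM of the 10 members in a library. The ratio of *Bax* to *Bcl2*, often used as a rough gauge of readiness for apoptosis, was 6.70, 6.11 and 4.96 in Ctrl and 5.31, 6.58 and 3.35 in cKO, with overlap. The ratio of summed effectors to summed anti-apoptotic members was 0.471 ± 0.0708 in Ctrl and 0.445 ± 0.0914 in cKO.

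The rest of the pathway was read from 4 lists with 57 genes, of which 46 passed the FPKM minimum. Past the unadjusted limit were 2 of the 46, 1 higher and 1 lower in cKO, a share near the 4.43% of all genes. The other 44 did not pass, and no gene of the lists passed an adjusted p below 0.05. Groups did not overlap for 3 of the 46 genes, as against 8.68% of all genes. Of the wider BCL2 family 8 of 15 genes were tested, and 1 passed the unadjusted limit, higher in cKO. This was *Bnip3*, a mitochondrial protein with a BH3-like stretch that is induced by low oxygen and marks mitochondria for autophagy. *Bnip3* was 9.57, 9.30 and 9.25 FPKM in Ctrl and 13.4, 10.9 and 12.9 in cKO. Its groups did not overlap, and its log2 difference was 0.37 with an SE of 0.12 (limma, p = 0.0188, adjusted p = 0.978; exact permutation p = 0.1). The call of *Bnip3* was lost without Ctrl 2, Ctrl 3, cKO 1 or cKO 3, with log2 differences of 0.36, 0.36, 0.31 and 0.34 in turn. The most abundant genes of this list did not pass, namely *Bnip3l*, the close relative of *Bnip3*, at -0.09, the effector-like *Bok* at -0.03 and the anti-apoptotic *Bcl2l2* at -0.01 on the log2 scale. The median log2 difference of the list was 0.02.

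Among the regulators upstream of BH3-only genes, 8 of 10 were tested and 6 of the 8 had log2 differences below 0. The 1 gene past the unadjusted limit, lower in cKO, was *Chek2*, the kinase of the DNA damage checkpoint that acts on the p53 family in oocytes. *Chek2* was 12.5, 8.64 and 6.22 FPKM in Ctrl and 5.34, 5.04 and 4.79 in cKO. Every cKO library lay below every Ctrl library, and the log2 difference was -0.70 with an SE of 0.23 (limma, p = 0.0192, adjusted p = 0.978; exact permutation p = 0.1). Its call was lost without cKO 3, at a log2 difference of -0.66. *Chek2* ranked the libraries in the order of the summed neutrophil markers, which were 280, 87.6 and 71.9 FPKM in Ctrl and 54.1, 49.7 and 49.1 in cKO. Of the listed neutrophil markers only *Ltf* had this order on its own. *Mpo* and *Elane* were highest in cKO 3, where *Chek2* was lowest. The part of neutrophil content in the difference of *Chek2* was not tested. *Atf4*, the transcription factor of the integrated stress response, was 103, 67.0 and 55.3 FPKM in Ctrl and 41.4, 62.3 and 45.0 in cKO and did not pass (log2 difference -0.56; limma, p = 0.0688; exact permutation p = 0.2). *Trp53*, which encodes p53, was 27.2 ± 2.52 FPKM in Ctrl and 27.5 ± 3.48 in cKO (SD, n = 3 each), a log2 difference of 0.01 (limma, p = 0.947; exact permutation p = 1). *Foxo3*, a repressor of follicle activation, had a log2 difference of -0.22 (limma, p = 0.296; exact permutation p = 0.4). *Trp63*, whose TA isoform guards oocytes after birth, was named after its values were seen and lay under the minimum, between 0.0409 and 0.116 FPKM in every library. The median log2 difference of the list was -0.25, beside -0.01 over all genes.

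Of the 20 genes of the mitochondrial pathway and caspases all were tested and 0 passed the limma limit at an unadjusted p below 0.05. The voltage-dependent anion channels of the outer membrane were the most abundant, with log2 differences of 0.06 for *Vdac1*, 0.25 for *Vdac3* and 0.02 for *Vdac2*, and the median of the list was -0.02. Of the 12 death receptor genes 10 were tested and 0 passed the same limit. *Tnfrsf1a*, the main TNF receptor, had a log2 difference of -0.16, the initiator caspase gene *Casp8* -0.01 and the adaptor gene *Tradd* 0.02, with a list median of 0.01.

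**Figure D4:**
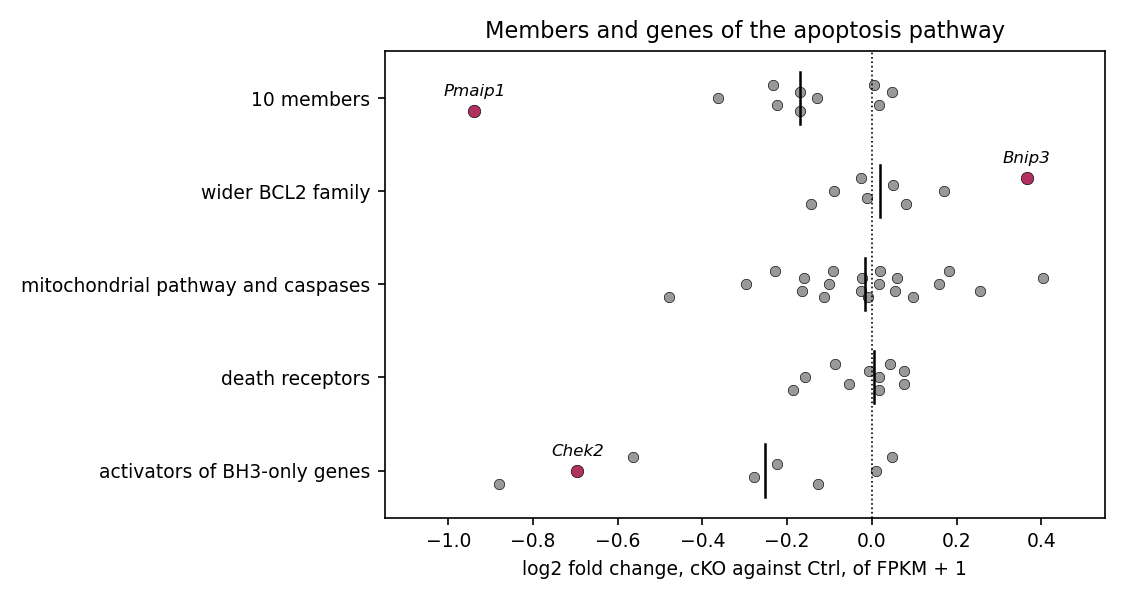
Log2 difference of cKO from Ctrl for the 10 members and for the genes tested of the 4 pathway lists, 1 point per gene, with a black bar at the median of each list and the genes past the unadjusted limit in colour. *Pmaip1* at -0.94, *Chek2* at -0.70 and *Bnip3* at 0.37 are the coloured points, and the medians lie between -0.25 and 0.02.

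As a description of how each member varied, the genes with the most similar pattern over the 6 libraries were looked up by Pearson's r of log2(FPKM + 1) among all genes tested. With 6 points and 17180 genes, values of r near 1 turn up for every member, and library depth, germ cell content and blood content are shared by all genes of a library. *Pmaip1* was closest to *Gsto2* (r = 0.99), *Tsnaxip1* (r = 0.99) and *Pih1h3b* (r = 0.99). *Tsnaxip1* was 0.359, 1.03 and 1.34 FPKM in Ctrl and 0.436, 0.294 and 0.380 in cKO, that is, also highest in Ctrl 2 and Ctrl 3. *Bax* was closest to *Riox1*, *Agpat3* and *Gm12918*, *Bak1* to *Otub1*, *Rita1* and *D8Ertd738e*, and *Bad* to *Ctdsp2*, *Hps6* and *Stoml1*, each of which was highest in cKO 2. *Bcl2l1* was closest to *Akap7*, *Cryzl1* and *Map1lc3b*, all highest in Ctrl 1 and lowest in cKO 1. Genes close to *Mcl1* included *Gm15964* and *Bcl11b*, and *Bbc3* was closest to *Thsd1*, *Efhd1* and *Btbd6* and *Bcl2* to *Fbxl17*, *Tdrp* and *Gm12592*. *Bid* was closest to *Zfp809*, *Gm21844* and *Gm24888*. *Bcl2l11* was closest to *Gm7099*, *Msl2* and *Apaf1* (r = 0.99), the last of which encodes the scaffold that cytochrome c turns into the apoptosome and was 6.81, 6.42 and 5.61 FPKM in Ctrl and 6.38, 5.60 and 7.14 in cKO.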

How the data were processed

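The 6 libraries, 3 of Ctrl and 3 of cKO, hold mRNA of whole ovaries collected at 16.5 dpc. The authors aligned paired-end reads with HISAT2 2.0.5 to mm10, per the submitters' processing notes, used featureCounts for the reads on each gene, and deposited the result as FPKM. The annotation release, and whether counting used strand, are details not given in the sources used here. Ovary is the tissue in the tissue field and in the study, although the extraction text in the labels speaks of another tissue. FPKM times gene length gave whole reads within 0.05 of a read, hence the depth.

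Genes whose FPKM averaged 0.5 or more were compared on log2(FPKM + 1) with limma 3.58.1 in R 4.3.3, two-sided, with an intensity trend and group as the only term. This log-scale test took the place of the study's count test because the deposited unit is FPKM, and the recovered reads were used in voom as an alternative. Adjusted p-values are Benjamini-Hochberg values over all 17180 genes tested, and the fit was tested on simulated data. Tables were handled in Python 3.11.15 (pandas 2.3.3, numpy 2.4.6), exact tests used scipy 1.17.1, and figures were drawn in matplotlib 3.10.9. Alternatives were pseudocounts of 0.1 and 0.5, no minimum or a minimum of 1 FPKM, median-ratio scaling, quantile normalization, voom, no intensity trend, a replicate block, each library left out, and, added after seeing the data, the germ cell list as a covariate. Coordinates of genes follow the deposited table, and 8 of 10 members had the same start and end in GENCODE M21, which gave exons, overlaps and coding sequence.

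The members and lists were chosen with earlier results of these data known. Named genes were *Srsf1*, the members, per pathway list every gene past the limit and the 3 most abundant, the 3 genes most similar to each member, and markers that moved with one. A single gene under this rule is not reported here. Marker lists covered germ cells, pregranulosa cells, stroma, red blood cells, macrophages, neutrophils and endothelium. No stroma, macrophage or endothelium marker passed the limit, and their summed levels overlapped between groups.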

Additional observations from a re-analysis of the deposited data

How the results depend on the processing

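The count of members past the unadjusted limit was 1 and became 0 with a pseudocount of 0.1 or 0.5, no FPKM minimum, a minimum of 1 FPKM, voom or the replicate block, and lay between 0 and 3 with 1 library left out. The log2 difference of *Pmaip1* kept its sign under every alternative but lost the limit with a pseudocount of 0.1 (-1.90) or 0.5 (-1.27), no FPKM minimum (-0.94), a minimum of 1 FPKM (-0.94), voom (-2.30) and the replicate block (-0.94), with adjusted p by limma between 0.882 and 0.999 over the 9 other settings that keep all libraries and 0.568 with the germ cell covariate, and ranged from -1.39 to -0.66 with 1 library left out.

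Leaving out 1 library gave log2 differences from -0.40 to -0.13 for *Bax*, -0.40 to 0.040 for *Bak1*, -0.11 to 0.11 for *Bcl2*, -0.30 to 0.038 for *Bcl2l1*, -0.21 to 0.0021 for *Mcl1*, -0.71 to 0.054 for *Bbc3*, -0.068 to 0.084 for *Bcl2l11*, -0.0043 to 0.098 for *Bid* and -0.48 to -0.052 for *Bad*. The sign also turned with voom for *Bcl2* (-0.01) and *Bcl2l11* (-0.020), and with the germ cell covariate for *Bcl2* (-0.051), *Bcl2l1* (0.0033), *Bbc3* (0.041) and *Bcl2l11* (-0.0039), all differences far from the limit. The cause was not tested for any of these.

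Pathway genes past the limit numbered 2 and became 5 with voom and with the germ cell covariate, and 1 to 5 with 1 library left out. All genes past it numbered 761 and became 1331 with no FPKM minimum, where 33797 genes were tested, and 365 to 2500 with 1 library left out. Of the 761 genes 460 were higher and 301 lower, and voom gave 350 and 343. Same-numbered Ctrl and cKO libraries deviated from their group means with correlations of -0.39, -0.03 and 0.12. These values gave no sign that the numbers pair the samples, but with 3 libraries per group they cannot exclude it. The replicate block gave 681 genes and 0 members. Depth limited *Pmaip1* most, with 4 to 127 reads per library, where a single library's value carries large counting error.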
